A study of Mus musculus with 16 samples.

Results

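The mitochondrial ribosomal protein genes are the nuclear genes named Mrpl (large subunit) or Mrps (small subunit) followed by a number. They were selected by gene symbol alone, with the pattern Mrpl or Mrps, digits and at most 1 further letter, and 78 of the 53379 gene IDs listed for every library matched, 49 Mrpl and 29 Mrps genes. The selection rule uses no measured value. The 16 libraries came from dorsal root ganglia, the clusters of sensory neuron cell bodies beside the spinal cord, of naive Nav1.8Cre/Rosa26fsTRAP mice on a C57BL/6J background aged 8 to 12 weeks. In these mice the Cre recombinase driven by Nav1.8 (Scn10a), a sodium channel of pain-sensing neurons, switches on the EGFP-L10a protein, so that the cytosolic ribosomes of those neurons carry a tag. All 4 groups carried both alleles and none was treated. From each pool of ganglia an input (IN) library was made of the total RNA of all cells, and an immunoprecipitate (IP) library of the RNA recovered with the tagged ribosomes by translating ribosome affinity purification (TRAP). There were 4 female IN, 4 female IP, 4 male IN and 4 male IP libraries. Each library came from a pool of 3 mice of 1 sex, 24 mice in 8 pools, so a replicate is a pool and the spread among single mice was not measured. Cre activity follows the Nav1.8 promoter, so sensory neurons without it contribute to IN but are not tagged.

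Mitochondria carry their own ribosome, which translates the few proteins encoded in mitochondrial DNA, all of them subunits of the oxidative phosphorylation complexes. Its 2 rRNAs are transcribed inside the organelle, whereas each of its proteins is encoded in the nucleus, translated on cytosolic ribosomes and imported. Many of these proteins are homologues of bacterial ribosomal proteins, and the others are found only in mitochondria. Long sensory axons depend on mitochondria for ATP and calcium handling.

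Short sequence motifs, each in a minority of the start regions of these genes, occur less often at other genes. The sequences are given here because the matches are a feature the symbol rule did not use. RefSeq windows from 250 bases before to 50 bases after the annotated start (mouse build GRCm38.p6) were found for 69 of the 78 genes and for 17423 other protein-coding genes, and where a gene had several starts the first along its strand was taken. The ETS-family letters CCGGAAG or their complement CTTCCGG, the core bound by GABP among other factors, stood in 24 of the 69 windows (34.8%), against 11.8% of the other windows. The YY1 letters ATGGCGGC or GCCGCCAT stood in 12 windows (17.4%), against 3.15%. The NRF1 motif, GCGCA and GCGC with any base between them, stood in 13 windows (18.8%), against 6.61%. The other letters searched stood at shares nearer to those of other genes: the SP1 letters GGGCGG in 49.3% against 46.3%, the NF-Y letters CCAAT in 39.1% against 39.2% and the CREB letters TGACGTCA in 2.90% against 2.32%. The TATA letters TATAAA were the exception, in 5.80% of the windows against 13.4%. Both strands were searched for each, and a match describes letters only. The 120 bases before the start are printed below, 5′ to 3′ on the gene's strand, for the 4 genes whose stretch holds an ETS match and no annotated exon, and capitals mark the match. These RefSeq starts lie 0 to 33 bases from the gene starts in the deposited files.
Mrpl34, chr8:71464806-71464925, plus strand: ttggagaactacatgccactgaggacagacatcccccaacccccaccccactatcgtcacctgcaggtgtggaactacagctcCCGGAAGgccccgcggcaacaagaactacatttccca
Mrpl58, chr11:115403632-115403751, plus strand: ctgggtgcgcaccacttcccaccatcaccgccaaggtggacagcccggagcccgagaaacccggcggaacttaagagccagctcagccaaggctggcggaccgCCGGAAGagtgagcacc
Mrpl52, chr14:54426789-54426908, plus strand: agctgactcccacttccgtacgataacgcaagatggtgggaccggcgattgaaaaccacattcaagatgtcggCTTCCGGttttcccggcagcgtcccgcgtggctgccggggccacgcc
Mrps22, chr9:98601680-98601799, minus strand: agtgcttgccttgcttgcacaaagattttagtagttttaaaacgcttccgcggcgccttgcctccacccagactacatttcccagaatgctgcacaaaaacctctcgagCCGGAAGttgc
Counted from the start, the first base of the match is at -37 in Mrpl34, -17 in Mrpl58, -47 in Mrpl52 and -11 in Mrps22.

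A part of the genes also has a genomic arrangement in common. Of the 78, 33 (42.3%) have a protein-coding neighbour on the opposite strand whose start lies within 1000 bases of their own, head to head, against 2373 of 22015 nuclear protein-coding genes (10.8%) in the GENCODE M21 annotation. Several of these neighbours also encode mitochondrial proteins: Ndufs6 beside Mrpl36 and Ndufb5 beside Mrpl47 are complex I subunits, Twnk beside Mrpl43 is the mitochondrial DNA helicase, Sars2 beside Mrps12 charges the mitochondrial serine tRNA, and Mrpl46 and Mrps11 face each other. The 78 genes lie on 17 chromosomes, with 11 on chromosome 11, and none lies on chromosomes X, Y or 18.

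Values are transcripts in each 1000000 (TPM) as deposited, which are per transcript length, divided by a scaling factor for each library so that the typical gene has the same level in all 16 (normalised TPM). The depth of the libraries is not given, so no counting error could be attached. Nuclear protein-coding genes held 9.58 to 13.3% of all TPM in IN and 44.9 to 79.5% in IP, where female pools 2 and 4 were lowest. The 10 nociceptor markers summed to 969 to 1174 normalised TPM in IN and 2567 to 3653 in IP, and all 10 were higher in IP. All tested markers of large neurons (7), satellite glia (6), Schwann cells (6), macrophages (5), endothelium (5), fibroblasts (5), muscle (5) and red blood cells (5) were lower in IP. The sum of the 6 Schwann cell markers was 2336 to 3489 in IN and 387 to 998 in IP, and that of the 6 satellite glia markers was 926 to 1236 and 124 to 279, both highest in IP in female pool 2. No marker was at 0 in all IP libraries.

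All 78 genes were detected in all 16 libraries, with no value at 0, and all passed the filter on low values in IN and in IP. Their levels ran in IN from 3.36 ± 0.56 normalised TPM (SD, n = 8) for Mrpl47 to 35.9 ± 3.64 for Mrpl20, and in IP from 3.49 ± 0.15 for Mrpl47 to 71.8 ± 6.44 for Mrpl20. The order of the genes was nearly kept between the fractions, with a Spearman correlation of 0.946 across the 78 genes, which share the same libraries. After Mrpl20 the most abundant in IP were Mrpl41 at 61.0 ± 9.55, Mrps21 at 58.2 ± 5.01, Mrpl54 at 48.5 ± 4.21 and Mrps6 at 47.0 ± 5.32 normalised TPM. Mrpl41 and Mrps21 differed by less than their SDs, as did Mrpl54 and Mrps6. As a share of the TPM of nuclear protein-coding genes, which needs no scaling factor, the 78 together made up 0.381 to 0.413% in IN (median 0.393) and 0.472 to 0.511% in IP (median 0.482). Every IP library lay above every IN library in this share.

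The RNA recovered with the tagged ribosomes held more of most of these transcripts than the whole ganglion did. Of the 78, 64 were higher and 4 lower in IP at an adjusted p under 0.05 (limma, 8 pools, pool as a block), and 10 passed in neither direction. Among all 16099 genes tested, 40.5% were higher and 38.9% lower, and among the 12902 nuclear protein-coding genes 37.6% and 41.8%. The median log2 difference of the 78 was 0.43 (quartiles 0.28 and 0.57, range -0.43 to 0.99), against 0.02 over all genes tested and -0.03 over the nuclear protein-coding ones. None reached a log2 difference of 1, which 3.16% of all genes tested did. In bulk RNA, a change in the share of a cell type and a change in the RNA of each cell cannot be told apart. When all libraries were instead set to the same total over protein-coding genes, 42 of the 78 were higher and 9 lower. Of all 16099 genes tested, 4399 were then higher and 8122 lower, and their median moved to -0.17.

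**Figure D1:**
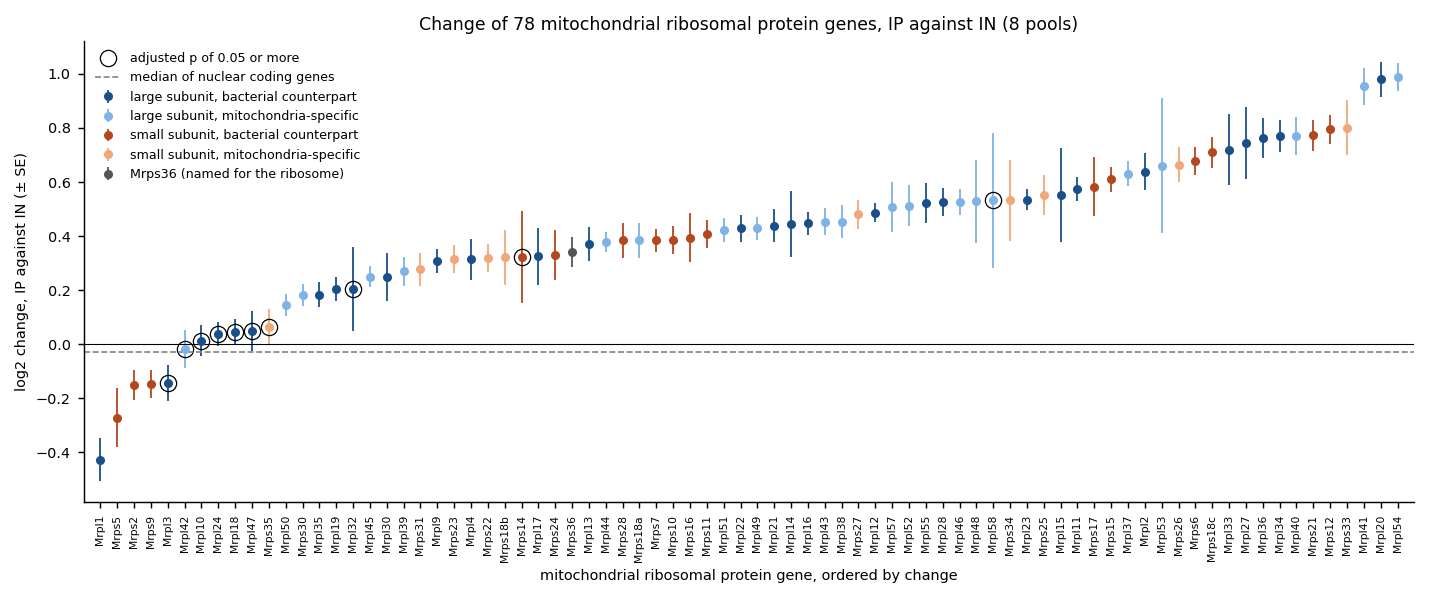
Log2 difference between IP and IN for each of the 78 mitochondrial ribosomal protein genes, ranked, with bars for the standard error. The 64 genes called higher fill most of the range up to 0.99, and the 4 called lower lie at the left end down to -0.43.

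The largest differences came from a mixture of large and small subunit genes. Mrpl54, a mitochondria-specific large subunit protein (chr10:81264713-81266934), ran from 20.3 to 27.1 normalised TPM in IN (median 24.2) and from 41.8 to 54.7 in IP (median 49.3). Its lowest IP library lay well above its highest IN library, and the difference was 0.99 ± 0.05 (log2 ± SE, limma adjusted p = 8.15e-08), 2.02-fold. Mrpl20, homologue of a bacterial protein that acts early in large subunit assembly (chr4:155802878-155809975), ran from 30.9 to 40.9 in IN (median 35.1) and from 60.7 to 80.1 in IP (median 73.3), without overlap. Its difference was 0.98 ± 0.06 (limma adjusted p = 2.82e-07). Mrpl41, another mitochondria-specific large subunit protein (chr2:24974117-24975098), ran from 27.3 to 33.9 in IN (median 31.1) and from 46.3 to 75.8 in IP (median 57.3), without overlap and with a wider spread among the IP libraries. It differed by 0.95 ± 0.07 (limma adjusted p = 4.91e-07).

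Among small subunit genes, Mrps33, Mrps12 and Mrps21 had the largest differences. Mrps33 is specific to mitochondria, and Mrps12 and Mrps21 have bacterial homologues, with Mrps12 lining the decoding centre. Mrps12 (chr7:28739641-28741820) ran from 16.7 to 26.01 normalised TPM in IN (median 22.2) and from 26.7 to 48.9 in IP (median 37.4). The fractions came within 1 unit of each other without overlapping, yet within each pool the IP library was higher, by 0.60 to 1.02, and the fitted difference was 0.80 ± 0.05 (limma adjusted p = 3.06e-07). Mrps33 (chr6:39801804-39810988) rose by 0.80 ± 0.10 (limma adjusted p = 3.66e-05), from 14.9 ± 1.60 in IN to 27.1 ± 5.75 in IP (SD, n = 8). Mrps21 (chr3:95862634-95871519) rose by 0.77 ± 0.06 (limma adjusted p = 6.21e-07), from 33.7 ± 3.63 to 58.2 ± 5.01. Mrpl40, specific to mitochondria, ran from 9.54 to 12.1 in IN (median 10.4) and from 15.8 to 22.5 in IP (median 18.9). Mrpl34, a protein with a bacterial homologue whose start region is printed above, ran from 11.03 to 15.0 in IN (median 12.6) and from 19.1 to 25.5 in IP (median 22.4). Both differed by 0.77, and none of these 8 genes overlapped between the fractions.

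Mrpl1 was the single gene lower in IP in all 8 pools. It is the homologue of the bacterial protein of the L1 stalk, a mobile arm of the large subunit that guides spent tRNA out of the ribosome (chr5:96209493-96266727). It ran from 4.64 to 6.23 normalised TPM in IN (median 5.51) and from 2.92 to 4.54 in IP (median 3.72). The fractions did not overlap, although the lowest IN and the highest IP library both belonged to female pool 2 and lay close together. Its difference was -0.43 ± 0.08 (limma adjusted p = 0.000616). Under quantile normalization it was -0.09 and passed no threshold (limma adjusted p = 0.306), and without any scaling, where the median gene itself rose by 1.84, it was 1.44.

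The other 3 genes called lower differed less and overlapped between the fractions. Mrps5, beside the path by which mRNA enters the small subunit, ran from 4.51 to 10.7 normalised TPM in IN (median 8.14) and from 5.34 to 8.38 in IP (median 5.83). The IP range lay inside the IN range, 6 of 8 pools were lower in IP, and the difference was -0.27 ± 0.11 (limma adjusted p = 0.0435). Mrps2 ran from 5.61 to 6.62 in IN (median 6.04) and from 4.76 to 6.18 in IP (median 5.50), and differed by -0.15 ± 0.06 (limma adjusted p = 0.0293, lower in 7 pools). Mrps9, whose bacterial homologue touches the tRNA being read, ran from 17.3 to 24.7 in IN (median 19.1) and from 15.8 to 19.5 in IP (median 17.8). Its ranges overlapped, and it differed by -0.15 ± 0.05 (limma adjusted p = 0.0232, lower in 6 pools). These 3 calls were each lost when any of several single pools was left out, and the sign was positive for Mrps2 under quantile normalization (0.13) and for Mrps9 when centred on the library median (0.24). Mrpl3, a core protein of the large subunit that lies near the peptidyl transferase centre, ran from 11.6 to 13.7 in IN (median 12.0) and from 8.97 to 15.3 in IP (median 10.9). Its value of -0.14 ± 0.07 did not pass (limma adjusted p = 0.0702) and was 0.17 when centred on the library median.

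The direction held across pools for most of the genes. Within pools, 52 of the 78 were higher in IP in all 8, against 33.2% of all genes tested, and 1 was lower in all 8. For 35 genes every IP library lay above every IN library, against 22.4% of all genes tested. Mrpl1 was the 1 gene with the reverse, against 26.0%. Pool by pool, 65 to 74 of the 78 were higher in IP, with a median between 0.33 in female pool 2 and 0.52 in male pool 3, while the median of nuclear protein-coding genes lay between -0.05 and -0.02 in every pool. Female pool 2, which had the highest sums of Schwann cell and satellite glia markers among the IP libraries, had the lowest median of the 78. Without female pools 2 and 4, 62 genes were higher and 3 lower, with a median of 0.42.

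**Figure D2:**
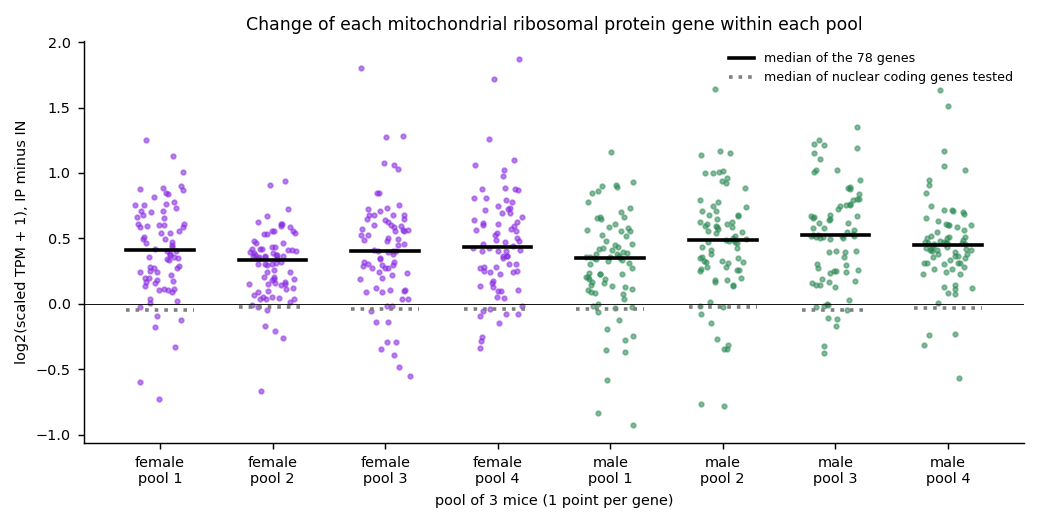
Log2 ratio of IP to IN within each of the 8 pools, with 1 point per mitochondrial ribosomal protein gene, a bar at their median and a mark at the median of nuclear protein-coding genes. The medians of the 78 lie between 0.33 and 0.52, above those of nuclear protein-coding genes in all 8 pools.

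By place in the ribosome, the groups had similar medians. Of 30 large subunit proteins with bacterial homologues, 23 were higher and 1 lower (median 0.43), and of 21 found only in mitochondria, 19 were higher and none lower (median 0.45). Of 16 small subunit proteins with bacterial homologues, 12 were higher and 3 lower (median 0.39), and of 10 found only in mitochondria, 9 were higher and none lower (median 0.40). Of all genes tested, 40.5% were higher and 38.9% lower. With equal protein-coding totals the counts were 15 higher and 5 lower, 13 and 1, 10 and 3, and 4 and 0, in the same order of classes. With those totals 4399 of all 16099 genes tested were higher and 8122 lower. The classes were not tested against each other. Mrps18a and Mrps18b are homologues of a bacterial protein but were counted in the classes found only in mitochondria. These classes follow known structures rather than names: Mrps30 and Mrps18a, despite their names, sit in the large subunit, and Mrps36 has been reassigned to the 2-oxoglutarate dehydrogenase complex.

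The genes of the stalk that recruits translation factors did not move alike. Mrpl12, which forms its flexible arms, ran from 18.3 to 20.9 normalised TPM in IN (median 19.7) and from 24.1 to 30.0 in IP (median 28.2), and differed by 0.49 ± 0.04 (limma adjusted p = 5.44e-07). The ranges did not overlap. Mrpl11, at the stalk base, rose by 0.57, whereas Mrpl10, which anchors the arms, ran from 13.7 to 15.4 in IN (median 14.8) and from 12.2 to 16.8 in IP (median 14.8) and differed by 0.01 ± 0.06 (limma adjusted p = 0.859), or by -0.21 with equal protein-coding totals (limma adjusted p = 0.00966). The IN range of Mrpl10 lay inside its IP range.

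Around the exit tunnel, through which the new protein leaves toward the inner membrane, 3 of 4 genes were higher. Mrpl22 rose by 0.43 and Mrpl23 by 0.53, while Mrpl24 ran from 17.4 to 22.03 normalised TPM in IN (median 18.9) and from 16.7 to 24.4 in IP (median 20.2) and differed by 0.04 ± 0.04 (limma adjusted p = 0.457). Mrpl45, which ties the ribosome to the inner membrane, ran from 7.17 to 8.33 normalised TPM in IN (median 8.08) and from 8.75 to 10.3 in IP (median 9.84), without overlap. Its difference was 0.25 ± 0.04 (limma adjusted p = 0.000149), which fell to 0.04 with equal protein-coding totals and did not pass (limma adjusted p = 0.442). With those totals 2 of the 4 genes were higher and Mrpl24 was lower, at -0.19.

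The 3 homologues of the bacterial S18 protein, which occupy different places in the mitochondrial ribosome, were all higher. Mrps18c ran from 11.8 to 16.02 normalised TPM in IN (median 13.2) and from 18.04 to 26.2 in IP (median 23.2), without overlap, and rose by 0.71 ± 0.06 (limma adjusted p = 1.13e-06). Mrps18a ran from 15.4 to 25.2 in IN (median 22.02) and from 22.4 to 35.0 in IP (median 28.1), and rose by 0.38 ± 0.07 (limma adjusted p = 0.0003). Mrps18b ran from 6.46 to 9.87 in IN (median 7.46) and from 5.88 to 12.4 in IP (median 10.4), and rose by 0.32 ± 0.10 (limma adjusted p = 0.0147). Both overlapped between the fractions. Whether the 3 differ from each other was not tested. Mrps30 rose by 0.18 ± 0.04 (limma adjusted p = 0.00196), from 4.16 to 4.66 in IN and from 4.79 to 5.64 in IP, a small difference without overlap that was -0.01 with equal protein-coding totals. Mrps36 rose by 0.34 ± 0.06 (limma adjusted p = 0.000253), from 6.32 to 7.99 in IN and from 7.58 to 11.5 in IP, with overlap. With equal protein-coding totals Mrps36 was at 0.13 and did not pass (limma adjusted p = 0.0629).

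Mrpl58, a peptidyl-tRNA hydrolase built into the large subunit that frees stalled ribosomes, varied widely between pools. It ran from 8.62 to 23.1 normalised TPM in IN (median 10.1) and from 7.98 to 32.1 in IP (median 21.7), with overlap, and 7 of 8 pools were higher in IP. The pool ratios ran from -0.93 to 1.63, and the fitted difference of 0.53 ± 0.25 did not pass (limma adjusted p = 0.0729). Without male pool 1 it was 0.74 and passed (limma adjusted p = 0.00763). Mrpl42, a large subunit protein found only in mitochondria, ran from 10.5 to 21.6 in IN (median 17.0) and from 9.97 to 27.1 in IP (median 14.6), and differed by -0.02 ± 0.07 (limma adjusted p = 0.83). The other genes with no call were Mrpl18, Mrpl47, Mrps35, Mrpl32 and Mrps14, beside Mrpl3, Mrpl10 and Mrpl24 above.

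**Figure D3:**
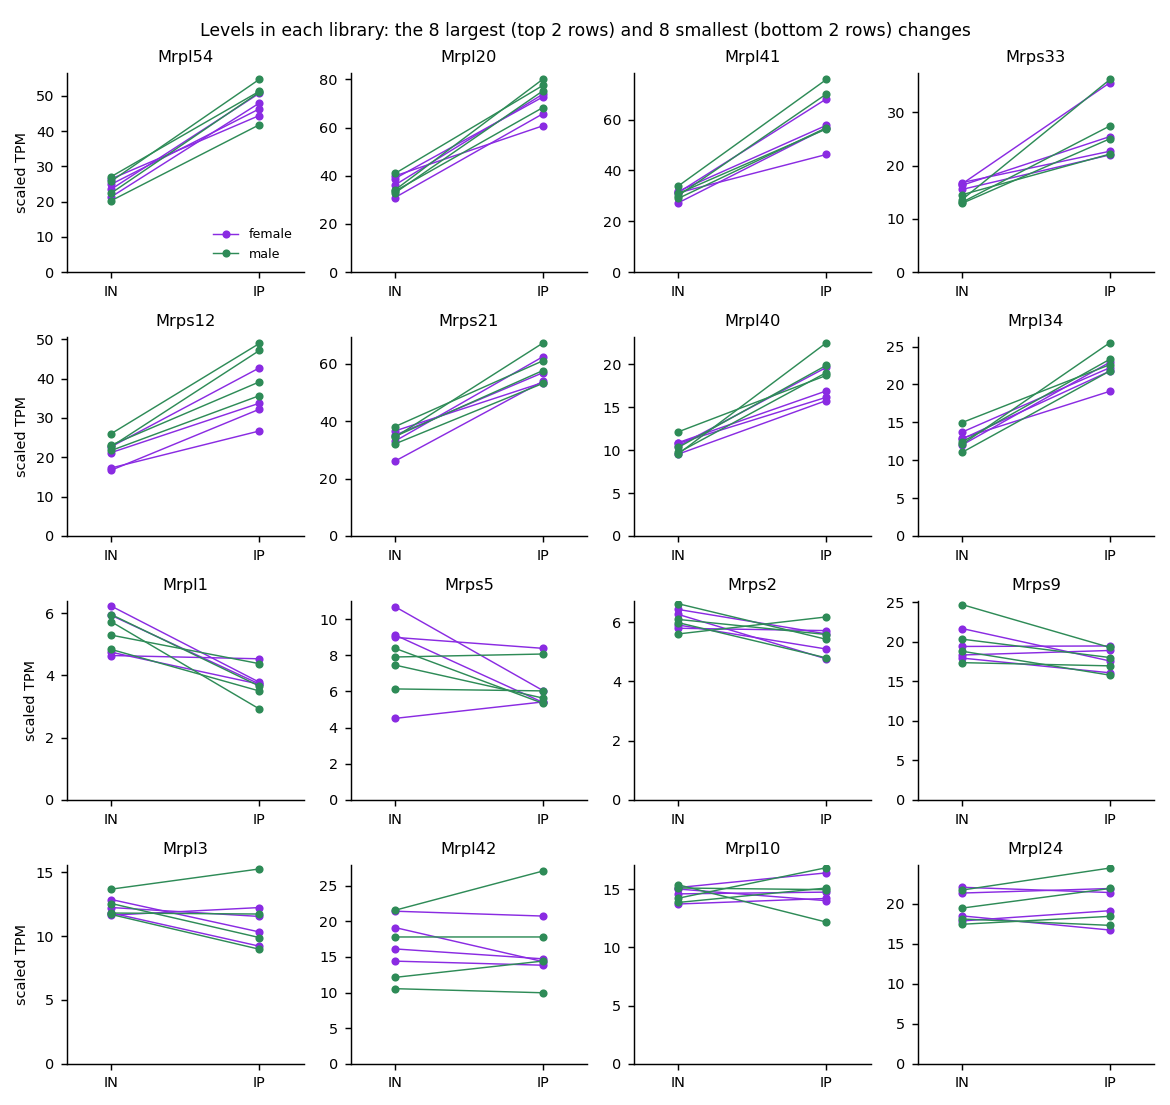
Normalised TPM of selected mitochondrial ribosomal protein genes in the IN and IP libraries, 16 in all. IP libraries lie above IN libraries for Mrpl54, Mrpl20 and Mrpl41, and below them for Mrpl1.

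Female and male pools were also compared between fractions on their own. In the female pools alone, 56 of the 78 were higher and 1 lower in IP, against 32.8% and 33.5% of the 16115 genes tested, with a median of 0.41. In the male pools 57 were higher and 2 lower, against 35.2% and 35.0% of 16061, with a median of 0.44. The differences of the 78 genes in the 2 sexes had a Spearman correlation of 0.824 across genes, from separate pools. Mrpl30, for example, differed by 0.09 in female pools (limma adjusted p = 0.471) and 0.40 in male pools (limma adjusted p = 0.0104), and Mrps16 by 0.21 (limma adjusted p = 0.16) and 0.57 (limma adjusted p = 0.000943). The difference itself did not pass for either gene, as follows.

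The sex by fraction interaction, which asks whether the IP to IN difference depends on sex, passed for 0 of the 78 genes (limma), against 0.0186% of all genes tested, and 1 of the 78 had an unadjusted p under 0.05, against 2.78%. Mrps16, a small subunit protein with a bacterial homologue, had the smallest p. Its female IN libraries were at 9.35, 10.3, 9.78 and 8.22 normalised TPM and its female IP libraries at 10.4, 10.3, 10.4 and 13.0. Its male IN libraries were at 9.93, 7.70, 8.80 and 7.32 and its male IP libraries at 13.0, 12.4, 14.3 and 12.5. The male fractions did not overlap and the female ones overlapped slightly, but the interaction of -0.37 ± 0.15 (female minus male) had an unadjusted p = 0.0306 and a limma adjusted p = 1.

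Between the sexes in IN, 0 of the 78 genes passed (limma), against 0.0883% of 13591 genes tested, and 3 had an unadjusted p under 0.05, against 4.97%. Mrps33 was at 16.3, 15.5, 16.8 and 16.6 normalised TPM in the female IN libraries and at 14.5, 13.1, 13.6 and 12.9 in the male ones. All 4 female libraries lay above all 4 male ones, by 0.24 ± 0.05 on the log2 scale (limma unadjusted p = 0.00127, adjusted p = 0.59). Mrpl57, a large subunit protein found only in mitochondria, was at 9.52, 11.7, 9.59 and 8.80 in female and 13.7, 12.5, 12.6 and 11.6 in male libraries, a difference of -0.30 ± 0.08 (limma adjusted p = 0.951). Mrps12 differed by -0.25 ± 0.10 (limma adjusted p = 0.952).

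Between the sexes in IP, 0 of the 78 passed (limma), against 0.0375% of 15992 genes tested, and 2 had an unadjusted p under 0.05, against 2.44%. Mrps16 differed by -0.23 ± 0.09 and Mrpl40 by -0.22 ± 0.09, both with a limma adjusted p of 1. Mrpl40 was at 16.9, 15.8, 19.6 and 16.2 normalised TPM in the female IP libraries and at 19.0, 22.5, 19.9 and 18.7 in the male ones, which overlapped. The order seen for Mrps33 in IN was not repeated in IP, where its female libraries were at 25.5, 22.03, 22.7 and 35.6 and its male ones at 22.2, 27.5, 36.2 and 25.1.

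Genes that act with the mitochondrial ribosome were set beside its proteins, in lists drawn up from their known roles. Their directions, like those above, are relative to the typical gene: without scaling, the medians of these nuclear lists ran from 1.66 to 2.55, around the 1.84 of all genes. Of 5 further ribosomal proteins with other names, 3 were higher and 1 lower in IP (median 0.49), against 40.5% and 38.9% of all genes tested. Chchd1 rose by 0.64 ± 0.05 (limma adjusted p = 8.89e-07), Dap3, a GTP-binding small subunit protein, by 0.55 ± 0.11 (limma adjusted p = 0.000896) and Gadd45gip1 by 0.49 ± 0.06 (limma adjusted p = 3.25e-05). Ptcd3, an RNA-binding small subunit protein, went the other way, from 14.1 ± 1.09 to 8.29 ± 1.44 normalised TPM (SD, n = 8), a difference of -0.72 ± 0.06 (limma adjusted p = 1.12e-06), which is below every one of the 78. Aurkaip1 differed by 0.17 ± 0.12 (limma adjusted p = 0.228), and by -0.05 under quantile normalization.

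The factors that work on the mitochondrial ribosome were split. Of all genes tested, 40.5% were higher and 38.9% lower. Of the 16099, 4399 were higher and 8122 lower at equal protein-coding totals, and 7939 and 5044 under quantile normalization. Of 13 translation factors, 3 were higher and 6 lower (median -0.03), against 5 and 3 under quantile normalization (median 0.06). The elongation factor partner Tsfm rose by 0.45 and the ribosome recycling factor Mrrf by 0.35, while the elongation factor Tufm differed by -0.03 ± 0.07 (limma adjusted p = 0.64, and 0.28 when centred), the GTPase Guf1 by -0.80 ± 0.07 (limma adjusted p = 2.57e-06) and the membrane insertase Oxa1l by -0.38 ± 0.05 (limma adjusted p = 5.02e-05). Of 23 assembly factors, 12 were higher and 6 lower (median 0.19). The balance depended on the scaling, with 8 higher and 10 lower at equal protein-coding totals (median -0.03) and 18 and 2 under quantile normalization (median 0.44). Among these, Mpv17l2 rose by 0.71 and the small subunit assembly factor Rbfa by 0.64, whereas the GTPase Gtpbp10 differed by -0.85.

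Of 20 genes for charging mitochondrial tRNAs, 8 were higher and 3 lower (median 0.10), against 40.5% and 38.9% of all genes tested. The share called higher was thus near that of all genes. Here too the balance depended on the scaling, with 3 higher and 7 lower at equal protein-coding totals (median -0.06) and 17 and 1 under quantile normalization (median 0.38). The alanine enzyme Aars2 rose by 0.65 and the methionine enzyme Mars2 differed by -0.59. Of 17 genes for mitochondrial DNA expression and its nuclear regulators, 1 was higher and 9 lower (median -0.25), against 5 and 6 under quantile normalization (median 0.10). The coactivator Ppargc1a, which drives mitochondrial biogenesis, differed by -1.48 ± 0.10 (limma adjusted p = 2.44e-07), from 5.71 ± 0.47 to 1.43 ± 0.39 normalised TPM. Gabpa, a subunit of the ETS-family factor GABP, differed by -0.76, Yy1 by -0.61 and Nrf1 by -0.53 (-0.15 under quantile normalization), and the 1 higher gene was Lrpprc, which stabilises mitochondrial mRNAs, at 0.17 (-0.06 with equal protein-coding totals).

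The transcripts that the mitochondrial ribosome itself reads were far lower in IP. All 13 protein-coding genes of mitochondrial DNA were lower, with a median of -5.23, and both mitochondrial rRNAs were lower. The 13 summed to 13919 to 20261 normalised TPM in IN and to 93.1 to 2290 in IP, with the highest IP value in female pool 2.

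The 81 genes with symbols of cytosolic ribosomal proteins, of which 78 were tested, were also mostly higher in IP. Their order relative to the mitochondrial ones depended on the scaling. They were taken by symbol pattern, which includes paralogues such as Rps27l and Rpl36al and can miss genes named otherwise. In IP 60 were higher and 1 lower, against 40.5% and 38.9% of all genes tested. Their median was 0.33, against 0.43 for the mitochondrial set. Relative to the median of all genes, the cytosolic set stood at 0.31 and the mitochondrial set at 0.41. With equal protein-coding totals these became 0.26 and 0.38, with 30 cytosolic genes higher and 10 lower, and under quantile normalization -0.07 and 0.35, with 26 higher and 13 lower. Of all 16099 genes tested, 4399 were higher and 8122 lower with those totals, and 7939 and 5044 under quantile normalization. The order turned when libraries were centred on their median or not scaled, at 0.72 for the cytosolic and 0.69 for the mitochondrial set. Rpl10a was at 1.36, but the tag is itself an L10a protein, and whether reads of its transcript were counted under Rpl10a was not tested.

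**Figure D4:**
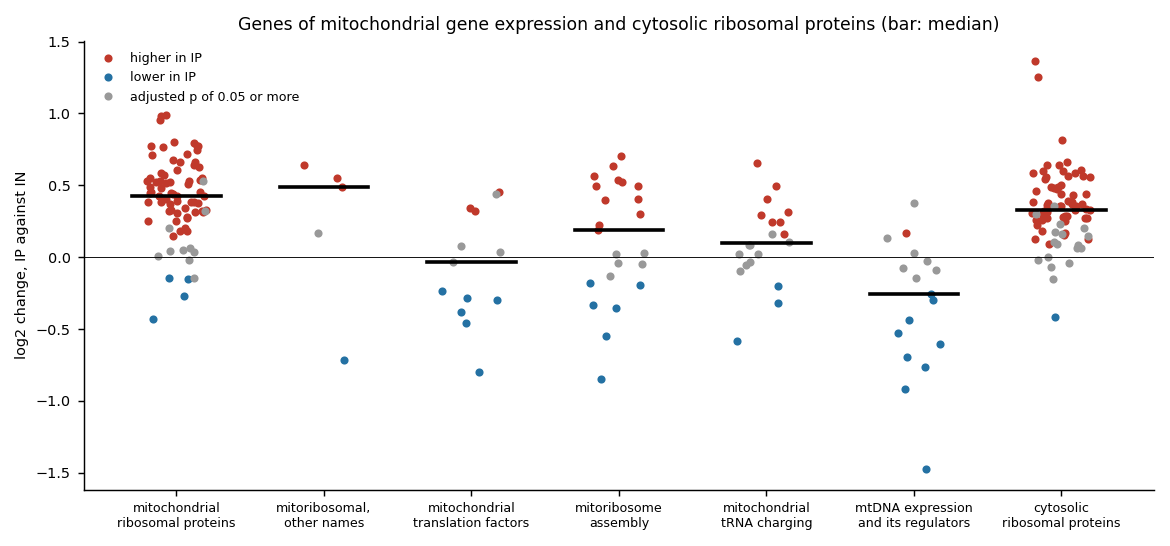
Log2 difference between IP and IN for each gene of the mitochondrial ribosome, of its partner lists and of the cytosolic ribosome. A bar marks each list's median, a line marks no difference, and colours mark genes called higher, called lower or not called. The mitochondrial ribosomal proteins centre on 0.43, the translation factors on -0.03 and the mitochondrial DNA expression genes on -0.25.

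Genes with a short exon length were higher in IP more often than those with a long one, among the 78 and among other genes. Exon length is the union of all exons annotated for a gene in GENCODE M21, which can exceed the length of its transcripts. Over the 78 it ran from 607 to 8631 bases (median 2394). Its Spearman correlation with the log2 difference was -0.426, against -0.317 over 12824 other nuclear protein-coding genes tested. Among the shortest 26 genes (607 to 1664 bases) 25 were higher, with a median of 0.53. Other protein-coding genes in that length range were higher in 61.3% of 1015 cases, with a median of 0.34.

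Among the middle 26 (1667 to 3291 bases) 22 were higher and 1 lower, with a median of 0.39, against 51.5% of 2899 other genes and a median of 0.18. Among the longest 26 (3332 to 8631 bases) 17 were higher and 3 lower, with a median of 0.35, against 33.4% of 6709 other genes and a median of -0.08. The median of the 78 thus stood above that of other genes in each of these length ranges. By level, the median was 0.32 for the 26 genes with the lowest mean level over all libraries (19 higher, 3 lower), 0.43 for the middle 26 (22 higher) and 0.62 for the highest 26 (23 higher, 1 lower). That mean includes the IP libraries, so a gene higher in IP also moves up in this order. The added pseudocount of 1 also shrinks the differences of low genes. The part of transcript length in the difference between IP and IN was not tested.

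**Figure D5:**
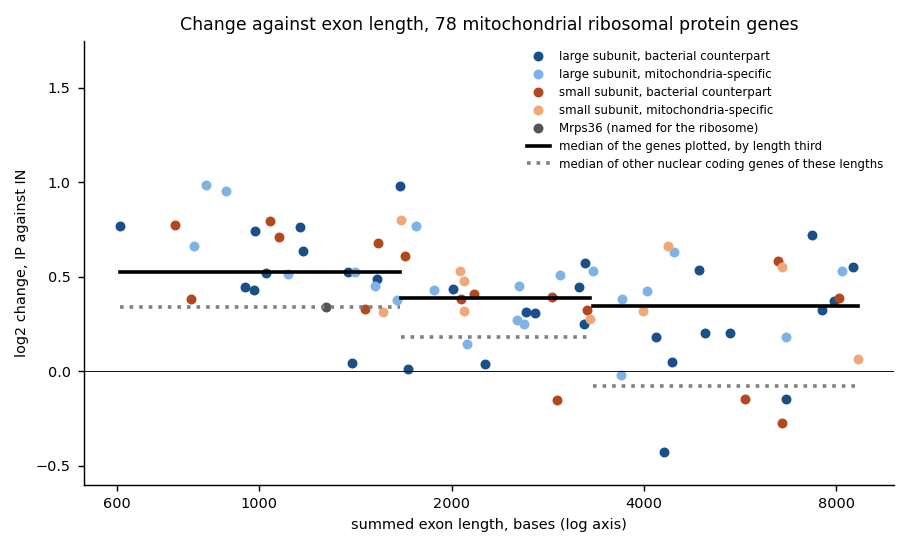
Log2 difference between IP and IN against exon length (log scale) for the 78 mitochondrial ribosomal protein genes, coloured by structural class. Solid bars mark the median of the 78 in each of the 3 length ranges. Dotted bars mark the median of other nuclear protein-coding genes in the same ranges. Both sets of medians fall with length, and the 78 have the higher median in each range.

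Neighbouring genes and copies limit what single values mean. Exons of 33 of the 78 share bases with another annotated gene, and reads of overlapping genes cannot be told apart. For overlaps on opposite strands, the labels do not state whether reads were assigned by strand. Mrpl53, Mrps6, Mrps24 and Mrps34 share exon bases with a protein-coding gene on the same strand, which strand would not separate. Of these 33, 27 were higher and none lower (median 0.44), and of the 45 without overlap 37 were higher and 4 lower (median 0.39). Mrps11 and Mrpl46, which overlap each other at their starts, rose by 0.41 and 0.53. Head-to-head genes were higher in 28 of 33 cases and lower in 1 (median 0.44), and the others in 36 of 45 and 3 (median 0.39). The 24 genes whose window held the ETS letters had a median of 0.49 with 21 higher, and the 45 whose window did not had 0.39 with 35 higher. The order was the opposite for the NRF1 motif, with a median of 0.33 for 13 genes against 0.44 for 56, and for the YY1 letters, with 0.40 for 12 against 0.44 for 57. Annotated pseudogenes named after 3 of the genes had values above 0, so the values of Mrpl23, Mrpl48 and Mrps36 are uncertain. Pseudogenes under other names were not looked for. Mean deposited TPM was 3.82 in IN and 31.9 in IP for Mrpl23-ps1, and 2.40 and 16.2 for Mrpl48-ps. It was 2.19 and 16.7 for Mrps36-ps1, and 1.65 and 12.8 for Mrps36-ps2. These pseudogene values are not scaled, and without scaling the median log2 difference of all genes tested was 1.84.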

How the data were processed

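Total RNA of whole ganglia (IN) and RNA from the TRAP pulldown (IP) were sequenced from 16 rRNA-depleted libraries, 4 in each of 4 groups. The authors deposited 1 value per gene and library, read here as TPM because the column sums to 1000000 with its 92 spike-in entries. The deposited header line ends in Coverage, so the TPM unit rests on that sum. FastQC, STAR 2.2.1, StringTie 1.3.5 and build GRCm38.p5 are named, per the submitters' processing notes, while annotation release and strand are not stated there. Depth is unknown, so counting error and detection limits could not be given, and a low value carries more error than its digits show.

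Entries that shared a gene ID were summed within a library. Each library was divided by a median-of-ratios factor (0.375 to 0.532 in IN, 1.65 to 2.69 in IP), and log2(value + 1) was fitted with limma 3.58.1 in R 4.3.3, with variance trend and Benjamini-Hochberg adjustment over all genes tested. Fold changes are on that log2(value + pseudocount) scale, which understates the change of low genes. Genes needed a mean deposited TPM of 1 in either group compared. IP was compared with IN with the pool as a block, since the series' design text calls the profiles paired by pool. Deviations of the IN and IP library of a pool correlated at 0.007 to 0.414. In male pool 1 (0.007 against 0.201) and female pool 1 (0.014 against 0.019) a library of another pool correlated more. The sexes were compared without a block. The 6 comparisons were IP against IN in all, female and male pools, the sexes within IN and within IP, and the sex by fraction interaction. Alternatives were other scalings, a pseudocount of 0.1, no filter, a filter at a mean of 5, a changed block and leaving out each pool. Leaving out female pools 2 and 4 together was chosen after seeing the data. The fit was also run on simulated data in which 200 genes changed. Those data started from scaled values and changed few genes, so they could not test the choice of scaling.

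The symbol rule for the genes reads no value, but this gene family, the lists and the tests were chosen with earlier results of these data known, so no count here is independent support for a pattern. Named genes were the 8 with the largest and the 8 with the smallest differences between IP and IN, the smallest p in the sex comparisons and the genes of the structural groups; other lists gave those with the largest and smallest differences. Tufm, Oxa1l, Gabpa, Yy1 and Nrf1 were named for their known roles after their values were seen.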

Additional observations from a re-analysis of the deposited data

Results flagged for a closer look

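Single libraries stood apart from the other 3 of their group (a gap to the nearest library above Dixon's critical share of the group's range) in 7 of 112 groups checked, and chance flags about 1 in 20. In female IP, pool 2 was at 4.54 normalised TPM for Mrpl1, where the others were between 3.72 and 3.78, and at 20.7 for Mrpl42, where the others were between 13.8 and 14.7. That library also had the lowest nuclear protein-coding share, 44.9%. Also in female IP, pool 4 was at 13.0 for Mrps16, with the others between 10.3 and 10.4, which bears on the interaction of that gene.

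In female IN, pool 2 was at 23.1 for Mrpl58, with the others between 8.62 and 10.6, and pool 3 was at 27.3 for Mrpl41, with the others between 31.2 and 31.8. In male IN, pool 1 was at 40.9 for Mrpl20, with the others between 32.9 and 34.1, and pool 4 was at 13.9 for Mrps18c, with the other 3 at 12.5.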

How the results depend on the processing

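The median of the 78 genes stood above that of all genes tested in IP under every scaling run, but counts and the weakest calls moved. Setting the protein-coding total equal gave 42 higher (all pools), 27 (female) and 35 (male). Among all genes tested, 4399 of 16099, 3347 of 16115 and 3622 of 16061 were then higher, in the same order. The genes lower in IP, 4 in all pools, numbered 0 without scaling, 1 when centred on the library median, 9 with equal protein-coding totals, 1 with quantile normalization, 1 without the filter, 5 with a filter at a mean of 5 and 2 without the replicate block. In female pools, with 1 lower, they numbered 0 without scaling, centred, with quantile normalization and without the filter, 8 with equal protein-coding totals, 3 with a filter at a mean of 5 and 2 without female pools 2 and 4. In male pools, with 2 lower, they numbered 0 without scaling and without the filter, 1 centred, with quantile normalization and without the replicate block, 3 with a filter at a mean of 5 and 5 with equal protein-coding totals. With each pool left out in turn, 62 to 66 were higher and 2 to 4 lower in all pools, 41 to 54 and 0 to 1 in female pools, and 51 to 56 and 1 to 2 in male pools. Without the replicate block 63, 52 and 55 genes were higher in all, female and male pools, and with a replicate block in the sex comparisons, or none in the interaction, 0 passed. Signs reversed without scaling for Mrps5 (1.71), Mrpl1 (1.44), Mrpl3 (1.95), Mrps2 (1.78), Mrps9 (2.02) and Mrpl42 (2.12), where the median of all genes was 1.84. They reversed when centred for Mrpl3 (0.17), Mrps2 (0.0037), Mrps9 (0.24) and Mrpl42 (0.34), and with equal protein-coding totals for Mrpl10 (-0.21), Mrpl24 (-0.19), Mrps30 (-0.014), Mrpl47 (-0.13), Mrps35 (-0.12), Mrpl50 (-0.0748), Mrpl35 (-0.0322) and Mrpl18 (-0.18). They reversed with quantile normalization for Mrpl24 (-0.027) and Mrps2 (0.13), without the filter for Mrpl3 (0.0129), Mrps9 (0.016) and Mrpl42 (0.14), with a filter at a mean of 5 for Mrpl10 (-0.10), Mrpl24 (-0.0806), Mrpl47 (-0.0455), Mrps35 (-0.031) and Mrpl18 (-0.0721), and without female pools 2 and 4 for Mrps35 (-0.0115). With each pool left out, Mrpl10 ran from -0.0165 to 0.0568 and Mrpl42 from -0.0619 to 0.0351. Searching any annotated start of a gene instead of the first, chosen after seeing the data, gave the ETS letters in 37.7% of the genes and TATA in 7.25%, and left the other shares as they were. Single pools ended the calls of Mrps5 (female pools 1 and 2, male pools 1 and 4), Mrps2 (female 1 and 4, male 1 and 2), Mrps9 (female 3, male 2 and 4), Mrpl30 (female 1 and 3, male 2, 3 and 4) and Mrpl53 (female 2 and 4, male 2 and 3), and leaving out 1 added those of Mrpl3 (female 2, male 1), Mrpl32 (male 1, 0.35), Mrpl58 (male 1, 0.74) and Mrps14 (male 2, 0.48). The cause of these shifts was not tested. No count test was run, since TPM keep no reads.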
